A study of Danio rerio with 12 samples.

Results

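The genes described here are the neighbours of *nr3c1*, the gene of the zebrafish glucocorticoid receptor (GR), on chromosome 14. They were taken from the order of the rows in the deposited tables: all rows up to 300 before and 300 after *nr3c1*, kept where at least 10 normalised counts were found in at least 6 of the 12 libraries. Of the 601 rows of this window, 5 were left out by the rule (*nr3c1* itself, *tsc22d3*, *dusp1*, *slc25a48* and 1 row named NPAS4), 176 were under the minimum, and 420 remained as members, out of 20114 genes tested in all. Beyond that minimum the members were taken by row position, less the 5 rows that the rule left out by name. With those rows included, 131 of 425 tested genes of the window passed the test described below, against 126 of 420 without them. The row order was checked against RefSeq: 388 rows of the window were matched there by a symbol of their own, 387 of them lay on chromosome 14, and their RefSeq order ran along with the row order (Spearman's rho = 1 after rounding). Distances below are in rows, since no coordinates of the authors' genome build were used.

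Brains of males, dissected at an age of 22 months together with olfactory bulbs and pituitary, were each sequenced as 1 library of poly(A)-selected RNA. Wild-type fish (gr +/+, n = 6) were compared with GR-mutant fish (gr s357/s357, n = 6), which carry a missense allele of *nr3c1* on both chromosomes. All were offspring of heterozygotes crossed to each other, were genotyped as young adults from fin clips, and were then kept by genotype in separate tanks, so that tank and genotype cannot be told apart. All tissue was taken in the morning, no fish received a treatment, and the mutant line rests on 1 allele.

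GR is a nuclear receptor that binds cortisol and then acts as a transcription factor, and in the brain it takes part in the feedback that ends a stress response. Fish that are homozygous for an allele also inherit the DNA around it from the founder in which the allele arose, except where recombination has replaced it. Genes close to a selected allele can thus differ in sequence between sibling groups. No DNA sequence of these fish was analysed here, and linkage and GR function cannot be told apart among the members.

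The libraries held 24407683 to 37548901 reads on genes, recovered from the deposited values. The transcript of *nr3c1* lay between 4107 and 4567 normalised counts in wild-type and between 4670 and 4955 in GR-mutant libraries, and since the allele changes an amino acid this level says nothing on whether the genotype labels are right. Some markers of neurons, oligodendrocytes, radial glia, microglia, endothelium, blood, pituitary and connective tissue were detected in each case. The lists were matched to gene IDs only in part. The matches were 2 of 8 genes for neurons, 3 of 6 for radial glia, endothelium and blood, and 4 or 5 of 6 for the other lists. The summed level of 5 pituitary markers varied most, from 2921 to 19643 in wild-type and from 94.9 to 50114 in GR-mutant libraries. Of all marker genes measured, 3 passed the test, each lower in GR-mutant brains. They were *ELAVL4* (1 of 2 neuron markers tested), *olig1* (1 of 5 of oligodendrocytes) and *kdrl* (1 of 3 of endothelium). In the other lists 0 passed, and among all genes tested the share that passed was 17.5%. *kdrl*, the vascular growth factor receptor of endothelial cells, is itself a member, 201 rows after *nr3c1*. The part of cell composition in the results below was not tested, and in whole brains fewer cells of a type and less RNA per cell cannot be told apart.

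Between the genotypes, 126 of the 420 members (30.0%) passed the test (limma on log2 values, adjusted p under 0.05 over all genes tested). Among all genes tested the share was 17.5%. Of these members 50 were higher in GR-mutant brains (11.9% of members, against 7.59% of all genes) and 76 were lower (18.1%, against 9.92%). With the libraries scaled to equal totals, the split between higher and lower was 79 to 49 in place of 50 to 76. This scaling moved the whole table: the median log2 fold change went from 0.01 to 0.09 over all genes tested and from -0.03 to 0.05 over the members. Of all genes 21.6% then passed, and of the members 30.5%. Scaling did not change the sign of any of the 126 members, but 27 of them no longer passed at equal totals. The 12 libraries separated without overlap by genotype at 73 members (17.4%, against 8.27% of all genes), and 21 members passed the test with a difference of at least 2-fold (5%, against 2.68%).

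Most of the differences were small. Of the 126 members, 86 differed by less than 1.5-fold, and the median absolute log2 fold change of those that passed was 0.40, against 0.44 for all genes that passed. The members as a whole were not shifted to one side: their median log2 fold change was -0.03, against 0.01 for all genes tested. Members were read more deeply than other genes (a median over genes of 615 normalised counts, against 352) and varied less within a genotype (median SD of log2 values 0.16 in wild-type and 0.13 in GR-mutant brains, against 0.21 and 0.19 for all genes), both of which bear on how many genes pass a test. Among genes with a mean of at least 100 normalised counts, 33.0% of 330 members passed, against 20.1% of all such genes.

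Along the gene order, the members that passed were not gathered next to *nr3c1*. In the first 50 rows on either side, 23.8% of 42 members before and 25% of 36 members after *nr3c1* passed. The share was lowest 51 to 100 rows before *nr3c1*, where 1 of 31 members passed (3.23%). It was highest 201 to 250 rows away on both sides, at 38.9% of 36 members before and 42.1% of 38 members after. Over the 100 rows on either side, 29 of 144 members passed (20.1%, against 17.5% of all genes). Before *nr3c1* 52 of 201 members passed (25.9%), 25 higher and 27 lower in GR-mutant brains. After it 74 of 219 passed (33.8%), 25 higher and 49 lower. These shares are descriptions of neighbouring genes, which are not replicates, and their differences were not tested.

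**Figure D1:**
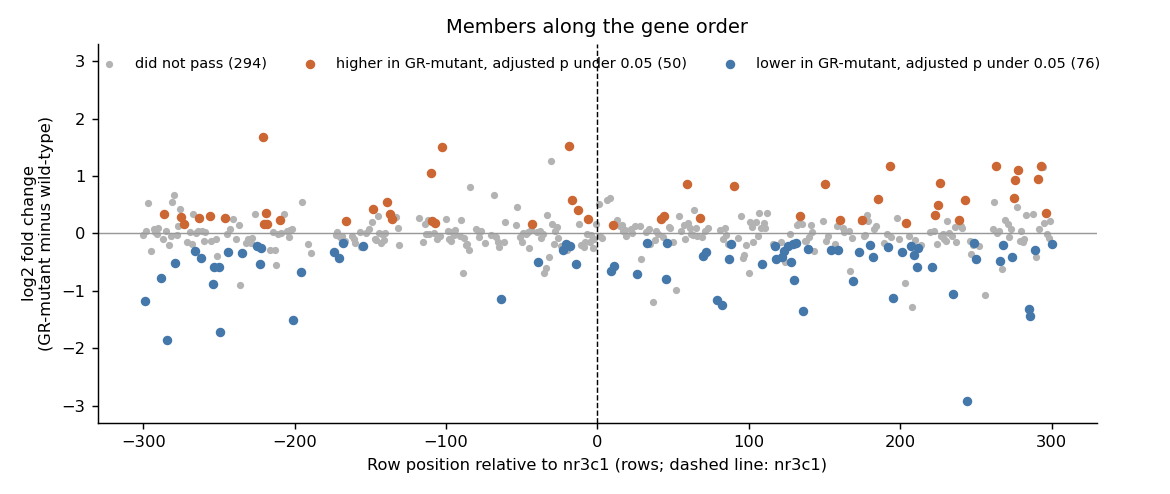
Log2 fold change of each of the 420 members (GR-mutant minus wild-type, y axis) against its position in rows relative to *nr3c1* (x axis, dashed line at *nr3c1*); orange points were higher and blue points lower in GR-mutant brains with an adjusted p under 0.05, and grey points did not pass. The 50 orange and 76 blue points are spread over both sides, with a stretch 51 to 100 rows before *nr3c1* that holds a single blue point.

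Some stretches went mostly one way. From 101 to 150 rows before *nr3c1* all 8 members that passed, of 29 tested, were higher in GR-mutant brains. At the same distance after *nr3c1*, 12 of the 14 that passed, of 38 tested, were lower. Beyond the window the share was 5.91% over rows 301 to 600 before *nr3c1* (12 of 203 genes) and 17.6% over rows 301 to 600 after it (39 of 221). Both of these stretches run over an end of the chromosome in row order: the farthest matched rows on chromosome 14 lay 480 rows before and 530 rows after *nr3c1*, with 1 matched row between them placed elsewhere. Still on the chromosome, from 301 to 450 rows before *nr3c1*, the share was 6.45%, 3.33% and 0.0% in successive stretches of 50 rows. The median over genes in these stretches was 543, 128 and 138 normalised counts. In the last of these, 9 of 35 genes had an unadjusted limma p under 0.05, and edgeR called 0 and DESeq2 4. Of the 8 tested genes within 10 rows past the ends of the window, 2 passed in limma. *LOXL3*, 310 rows before *nr3c1*, was higher in GR-mutant brains (log2 fold change 2.04, adjusted p = 0.000494). A row named *LECT2*, 302 rows after it, was also higher (1.27, adjusted p = 0.0406), at low means of 6.27 in wild-type and 14.1 in GR-mutant brains. The next row, also named *LECT2*, was more highly expressed and did not differ (0.0016, adjusted p = 0.998).

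**Figure D2:**
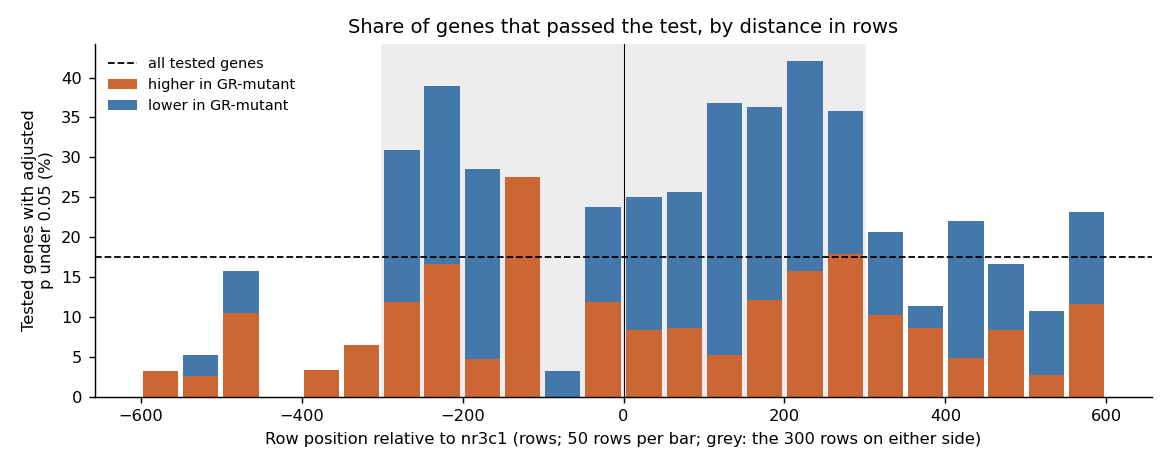
Percent of tested genes with an adjusted p under 0.05 (y axis) in stretches of 50 rows before and after *nr3c1* (x axis), split into genes higher (orange) and lower (blue) in GR-mutant brains; grey shading marks the window and the dashed line the 17.5% of all tested genes. Inside the window 11 of the 12 bars stand above the line, and the bar 51 to 100 rows before *nr3c1*, at 3.23%, does not.

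When the whole table was laid out in 54 blocks of 601 rows, one of them this window with its left-out genes, between 10.2% and 30.8% of the tested genes of a block passed, with a median of 16.8%. The window itself was the block at 30.8%, and the next was at 27.6%. No test was made of this order, and blocks differ in their depth and gene content.

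The 10 tested members closest to *nr3c1*, 5 on each side, did not pass the test (adjusted p from 0.102 to 0.758). At an unadjusted limma p under 0.05 there were 2, and edgeR and DESeq2 called 0. Next to *nr3c1* in the table, *fgf1a*, a fibroblast growth factor, lay between 445 and 714 normalised counts in wild-type (median 582) and between 612 and 703 in GR-mutant libraries (median 647), with a log2 fold change of 0.16 ± 0.10 (SE). On its other side *KCTD16*, an auxiliary subunit of GABA-B receptors, lay between 75.8 and 183 (median 104) in wild-type and between 121 and 226 (median 153) in GR-mutant libraries (0.51 ± 0.21, adjusted p = 0.102). For both genes the ranges of the genotypes overlapped. The dopamine receptor gene *drd1a*, 6 rows after *nr3c1*, had 12.6 to 32.5 normalised counts in wild-type and 29.7 to 46.1 in GR-mutant libraries (0.58 ± 0.24, adjusted p = 0.109), with an overlap at the edge of the ranges. *KCTD16* did pass with 2 of the alternatives, over which its adjusted p ran from 0.0241 to 0.201.

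The other members of this nearest group had log2 fold changes between -0.25 and 0.61. They were *MARS2* (-0.15 ± 0.10), the mitochondrial methionyl-tRNA synthetase, *HSPA4* (-0.03 ± 0.05), a chaperone of the Hsp110 family, *GNPDA1* (-0.25 ± 0.14), an enzyme of amino sugar metabolism, *NDFIP1* (-0.09 ± 0.05), an adaptor of NEDD4 ubiquitin ligases, *sh3rf2* (-0.05 ± 0.10), of a ubiquitin ligase family, *KIF3A* (-0.09 ± 0.05), a kinesin motor subunit needed for cilia, and *msx2a* (0.61 ± 0.47), a homeobox gene. For *HSPA4* and *sh3rf2* the sign itself changed with the settings, as given in the closing section.

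Among the members that fell in GR-mutant brains, the 10 with the largest falls are named here, out of those whose genotypes did not overlap and whose mean was 50 normalised counts or more. They lay between 288 rows before and 285 rows after *nr3c1*. *EIF4EBP3*, 284 rows before *nr3c1*, encodes a repressor of translation that binds the cap-binding factor eIF4E. It lay between 363 and 768 normalised counts in wild-type libraries (median 514) and between 115 and 192 in GR-mutant libraries (median 141), a log2 fold change of -1.85 ± 0.16 (adjusted p = 5.21e-06). The lowest wild-type brain held nearly as much again as the highest GR-mutant brain. *clk4a*, 288 rows before *nr3c1*, a kinase that phosphorylates splicing factors, went from 7861 to 12544 (median 10062) down to 4916 to 6681 (median 5726; -0.79 ± 0.10, adjusted p = 0.000245).

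*dnajc4*, 254 rows before *nr3c1*, belongs to the J-domain family of Hsp70 partners. Its levels were 1126 to 1264 (median 1227) in wild-type and 572 to 736 (median 670) in GR-mutant libraries, with little spread inside either genotype (-0.88 ± 0.06, adjusted p = 6.26e-07). *SLC25A43*, 195 rows after *nr3c1*, encodes a carrier of the mitochondrial inner membrane. It lay between 418 and 567 (median 496) in wild-type and between 205 and 261 (median 223) in GR-mutant libraries (-1.13 ± 0.09, adjusted p = 2.42e-06). *rbmx*, 169 rows after *nr3c1*, encodes an RNA-binding protein of splicing. It lay between 2659 and 3523 (median 3344) in wild-type libraries, and the GR-mutant libraries were close to one another at 1717 to 1840 (median 1788; -0.83 ± 0.07, adjusted p = 5.32e-06).

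*atox1*, 45 rows after *nr3c1*, encodes the chaperone that hands copper to ATP7-type pumps, and it lay between 687 and 856 (median 770) in wild-type and between 379 and 486 (median 443) in GR-mutant libraries (-0.80 ± 0.08, adjusted p = 1.43e-05). *ATP7A*, 18 rows before *nr3c1*, encodes such a pump. Its decrease was small, from 1319 to 1544 (median 1404) to 1147 to 1237 (median 1212), although the genotypes did not overlap (-0.22 ± 0.05, adjusted p = 0.00550), and it did not pass at equal totals or with the replicate block (adjusted p up to 0.0642).

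The remaining large falls were those of *prss23*, *C14HXorf65*, *lygl1* and *adh5l*. *prss23*, a serine protease gene 130 rows after *nr3c1*, went from 1126 to 1498 (median 1248) to 673 to 808 (median 704; -0.82 ± 0.07, adjusted p = 7.24e-06). *C14HXorf65*, 136 rows after *nr3c1*, went from 140 to 213 (median 178) to 52.6 to 82.6 (median 71.4; -1.35 ± 0.15, adjusted p = 4.68e-05). In both genes every GR-mutant library was well under every wild-type library, and the rule for the named falls asked for no overlap. *lygl1*, a g-type lysozyme gene 64 rows before *nr3c1*, is the 1 member that passed in the stretch of 31 from 51 to 100 rows before *nr3c1* (-1.15 ± 0.19, adjusted p = 0.00140). Both *lygl1* and *adh5l* held 1 wild-type library apart and are described with the single libraries.

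Among the members that rose, *MXD3*, 110 rows before *nr3c1*, had the smallest adjusted p of the 10 named. It encodes a partner of MAX that represses transcription at MYC target sites. It lay between 221 and 254 normalised counts (median 234) in wild-type and between 427 and 543 (median 495) in GR-mutant libraries (1.05 ± 0.08, adjusted p = 1.32e-06). *pld7*, of the phospholipase D family, 59 rows after *nr3c1*, rose from 205 to 242 (median 224) to 372 to 434 (median 407; 0.86 ± 0.07, adjusted p = 2.48e-06). *cab39l1*, 150 rows after *nr3c1*, encodes a scaffold of the kinase LKB1. It rose from 445 to 574 (median 464) to 800 to 951 (median 896; 0.86 ± 0.07, adjusted p = 3.64e-06). In all 3 genes every GR-mutant library was above every wild-type library, which the rule for the named rises, the same as for the falls, required.

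*fbxl3l*, 19 rows before *nr3c1*, had the largest rise of the 10 and is the nearest to *nr3c1* of the 21 members that passed with a difference of at least 2-fold. It lay between 44.4 and 76.3 (median 57.9) in wild-type and between 118 and 195 (median 186) in GR-mutant libraries (1.52 ± 0.17, adjusted p = 5.41e-05). *si:rp71-46j2.7*, 193 rows after *nr3c1*, rose from 175 to 333 (median 298) to 495 to 779 (median 618; 1.18 ± 0.15, adjusted p = 0.000159), and *si:ch211-203d1.3*, 278 rows after it, rose from 476 to 728 (median 536) to 1108 to 1328 (median 1185; 1.1 ± 0.09, adjusted p = 3.36e-06). *si:rp71-46j2.7* stands 2 rows from *SLC25A43*, which fell. The other rises were those of *afap1l1a* (1.18 ± 0.20), an actin-filament adaptor, *LRIT3* (0.95 ± 0.16), a synaptic adhesion protein of the retina in mammals, *TRMT12* (0.61 ± 0.10), a tRNA-modifying enzyme, and *zdhhc24* (0.58 ± 0.09), of the palmitoyltransferase family, all 243 to 291 rows after *nr3c1* with adjusted p from 0.000692 to 0.00164. In *afap1l1a* wild-type library 2, at 83.1 normalised counts, lay nearer to the GR-mutant mean, while the other wild-type libraries had 43.0 to 63.8 and the GR-mutant libraries 86.8 to 163.

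**Figure D3:**
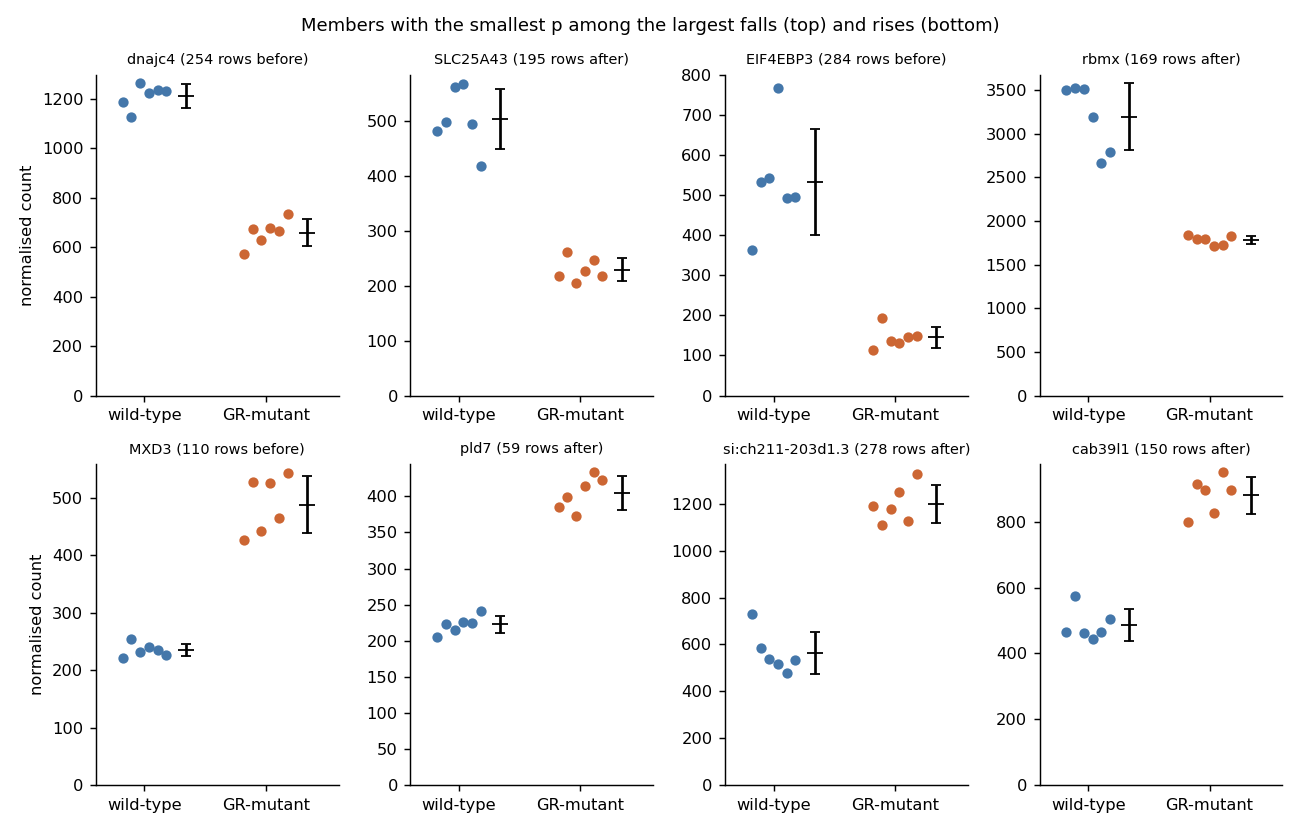
Normalised counts (y axis, from 0) of single libraries, 6 wild-type (blue) and 6 GR-mutant (orange), for the 4 members with the smallest p among the large falls (top) and among the large rises (bottom); black bars give the mean and SD. In all 8 genes the genotypes do not overlap, which was a condition of their choice, as for *dnajc4* with 1126 to 1264 against 572 to 736.

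A further 92 members passed without being named by the rule, 34 higher and 58 lower, with log2 fold changes from -2.92 to 1.5. The lowest of these was that of a gene that met the minimum only through its wild-type libraries, described below. Families among the members were counted by the start of their symbols, a choice made with the results known. Of 7 receptor genes for glutamate, GABA or glycine, 3 passed, where 30.0% of all members and 17.5% of all genes tested did. So few genes cannot tell the family from the members around it. *GRIA1*, an AMPA receptor subunit 250 rows after *nr3c1*, fell from 5191 to 6352 (median 5352) to 3881 to 4300 (median 3979; -0.45 ± 0.05, adjusted p = 6.66e-05), without overlap. *GABRB2*, a GABA-A receptor subunit, fell by 0.18 ± 0.05 on the log2 scale (adjusted p = 0.0226), which was lost at equal totals, and *GLRA1*, a glycine receptor subunit, rose (0.25 ± 0.06, adjusted p = 0.0135). The other 4 were *GRIA2* (-0.10 ± 0.05, adjusted p = 0.194), *GRIA3* (-0.17 ± 0.06, adjusted p = 0.0740), *GLRB* and *gabrp*.

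Members of other families also passed, in a window where 30.0% of members did so, against 17.5% of all genes tested. Of 3 genes of the Hsp70, Hsp110 and DnaJ families, *dnajc4* and *HSPA9*, the mitochondrial Hsp70, fell and *HSPA4* did not pass. For *HSPA9* the decrease was -0.17 ± 0.04 (adjusted p = 0.0149) and was lost at equal totals. The transcription factor genes *SOX3* (0.59 ± 0.14, adjusted p = 0.0112) and *FOXO4* (0.30 ± 0.05, adjusted p = 0.00235) rose. *ppargc1b*, a coactivator of mitochondrial genes 26 rows after *nr3c1*, fell from 4245 to 8141 (median 7129) to 3452 to 4326 (median 4011; -0.71 ± 0.14, adjusted p = 0.00509), with an overlap at the edge.

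Neighbouring members that passed formed 9 runs of at least 3, which held 34 members (8.10%, against 1.77% of all genes tested). More members passed to begin with (30.0%, against 17.5%), which by itself brings more runs, and whether the runs exceed this was not tested. Over the whole table there were 104 such runs, the longest of 10 genes. Among the members the longest run had 7 genes, and 2 runs in the whole table, this one included, were of at least this length. In 2 of the 9 runs all members went the same way, and in the other 7 some rose and some fell. Which members formed runs rested on single libraries and on the fit: leaving out 1 library at a time gave a longest run of 4 to 7 and 14 to 33 members in runs. With the replicate number as a block only 3 members formed a run, in a fit that rests on fewer libraries, as given in the closing section.

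The run of 7 lay 218 to 225 rows before *nr3c1*. *ST3GAL5*, the sialyltransferase that makes the ganglioside GM3, fell (-0.22 ± 0.05, adjusted p = 0.00517), as did *atoh8*, a bHLH transcription factor gene (-0.54 ± 0.14, adjusted p = 0.0161), and *TMEM129*, a ubiquitin ligase of the endoplasmic reticulum (-0.26 ± 0.07, adjusted p = 0.0200). The 4 genes after them rose. The change from falls to rises came at ENSDARG00000111450, a gene with no symbol, which had 3.25 to 12.7 normalised counts (median 7.15) in wild-type and 17.8 to 35.1 (median 23.7) in GR-mutant libraries (1.69 ± 0.31, adjusted p = 0.00237). It was followed by *si:zfos-2326c3.2* (0.16 ± 0.04, adjusted p = 0.0277), *IL1RAPL2* (0.36 ± 0.09, adjusted p = 0.0126), of the interleukin-1 receptor family, and *FAM199X* (0.16 ± 0.04, adjusted p = 0.0175). *TMEM129*, *si:zfos-2326c3.2* and *FAM199X* were not called with 2, 7 and 1 of the alternatives. ENSDARG00000111450 met the minimum for members through the GR-mutant libraries, where it was high. Its fold change and p are thus a description, and the run of 7 counts it as a member that passed.

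The run of 5 lay 13 to 19 rows before *nr3c1* and held *fbxl3l* and *ATP7A*, described above, with *sowahab* (0.58 ± 0.18, adjusted p = 0.0397), *nudt22* (-0.53 ± 0.13, adjusted p = 0.0145) and *si:ch211-107m4.1* (0.41 ± 0.12, adjusted p = 0.0329). Within it 3 genes rose and 2 fell, in alternation along the order. *fbxl3l* was called with every alternative, and each of the other 4 lost the call with at least 1 of them.

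Of the shorter runs, the 4 genes 128 to 131 rows after *nr3c1* all fell. They were *ATL3* (-0.49 ± 0.13), a GTPase that shapes the endoplasmic reticulum, *CFL1* (-0.19 ± 0.05), the actin-severing protein cofilin, *prss23* and *ubl3b* (-0.17 ± 0.04). The 3 genes 136 to 139 rows before *nr3c1* all rose, *si:dkey-102m7.3* (0.55 ± 0.10), *slbp* (0.34 ± 0.10), which binds the stem-loop of histone mRNAs, and *ccdc142* (0.25 ± 0.06). A run of 3 closest to *nr3c1* on its far side, 9 to 11 rows after it, began with *si:ch211-277c7.7*, which fell from 76.5 to 114 (median 88.8) to 46.7 to 71.3 (median 57.8; -0.65 ± 0.15, adjusted p = 0.00984). It also held *CPEB4*, an RNA-binding regulator of translation, which rose slightly (0.15 ± 0.05, adjusted p = 0.0458). The remaining 4 runs of 3 mixed both directions, such as *xiap* (-0.45 ± 0.05), the inhibitor of caspases, with *hmmr* (0.83 ± 0.18), a receptor for hyaluronan.

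None of the 420 members was found in one genotype only, taken as at least 10 normalised counts in all 6 libraries of one genotype and at most 3 reads in each library of the other. Of all 20114 genes tested, 10 met this rule. The member that came closest was *si:ch73-22o18.1*, 244 rows after *nr3c1*, singled out after its values were seen. It had 17.8 to 52.9 normalised counts (median 26.8) in wild-type and 1.1 to 6.41 (median 2.57) in GR-mutant libraries (-2.92 ± 0.39, adjusted p = 0.000252). It met the minimum of 10 normalised counts only through the wild-type libraries, where it was high. Its fold change and p are thus a description. Reads were found in each GR-mutant library, but the lowest value, 1.1, is about that of 1 read, under the floor of 3 reads used here.

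Among the rows of the window as a whole, tested or not, 3 held at least 20 reads in one genotype and 3 reads or fewer in the other, summed over libraries, against 104 of all 32520 rows. These rows were chosen by their reads, and all 3 were read in wild-type and nearly or wholly unread in GR-mutant libraries. *pimr56*, of the Pim-related kinase genes, 248 rows before *nr3c1*, had 2 to 7 reads in each wild-type library and 0 in each GR-mutant library. *zgc:113364*, 89 rows after *nr3c1*, had 36, 54, 47, 40 and 52 reads in wild-type libraries 1, 2, 3, 4 and 7, but 0 reads in wild-type library 5 and 0 in every GR-mutant library. *si:rp71-46j2.8*, 196 rows after *nr3c1*, had 32, 37, 27, 35 and 35 reads in the same 5 wild-type libraries, 6 reads in wild-type library 5, and 0 or 1 read in GR-mutant libraries. A count of 0 reads allows up to 3 reads at this depth (counting error only), so a very low level could go undetected where no read was found. For *si:rp71-46j2.8* GR-mutant libraries 3 and 4 did hold 1 read each. *si:rp71-46j2.8* is the row next to *SLC25A43*, and *zgc:113364* lies inside the run of *xiap* and *hmmr*.

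Wild-type library 5 lay at or near the GR-mutant level at some other members too. By the count given below this held at 12 of 83 members (14.5%), against 12.3% of such genes in the whole table. *adh5l*, an alcohol dehydrogenase gene 285 rows after *nr3c1*, had 350, 358, 394, 415 and 364 normalised counts in wild-type libraries 1, 2, 3, 4 and 7 but 148 in wild-type library 5, against 103 to 145 in GR-mutant libraries (-1.32 ± 0.22, adjusted p = 0.00133). The next row, *zgc:77938*, had 513, 366, 373, 428 and 306 in the same 5 libraries and 114 in wild-type library 5, against 99.7 to 151 in GR-mutant libraries (-1.45 ± 0.29, adjusted p = 0.00428). At both genes wild-type library 5 sat at the GR-mutant level while the other wild-type brains stood at more than 300 normalised counts.

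ENSDARG00000103053, 201 rows before *nr3c1*, behaved alike, with 64.9 to 89.4 normalised counts in the other wild-type libraries, 24.5 in wild-type library 5 and 14.2 to 27.1 in GR-mutant libraries (-1.52 ± 0.30, adjusted p = 0.00426). *lygl1* had 136 in wild-type library 5, between the 213 to 387 of the other wild-type libraries and the 97.4 to 112 of the GR-mutant libraries. Next to these, many members with large changes, such as *MXD3*, *dnajc4* and *SLC25A43*, showed wild-type library 5 among the other wild-type brains. The rows at which it stood apart were scattered from 225 rows before to 293 rows after *nr3c1*.

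The reverse was seen in GR-mutant library 2 at some members. By the count given below this held at 7 of 83 members (8.43%), against 12.3% of such genes in the whole table. Of the examples here, *nek12* and *stard14* were picked by their values, outside the naming rule. *nek12*, a NIMA-related kinase gene 82 rows after *nr3c1*, had 82.4 normalised counts in GR-mutant library 2, inside the 58.8 to 96.3 of the wild-type libraries, and 18.6 to 33.4 in the other GR-mutant libraries (-1.25 ± 0.29, adjusted p = 0.00945). *stard14*, 208 rows after it, had 89.8 in GR-mutant library 2, against 15.3 to 31.6 in the other GR-mutant and 33.0 to 91.7 in wild-type libraries (-1.28 ± 0.42, adjusted p = 0.0513). At *stard14* wild-type libraries 1 (38.8) and 2 (33.0) also lay nearer to the mean of the other genotype. *kcnk4a*, a potassium channel gene 249 rows before *nr3c1*, had 27.5 in GR-mutant library 2, 6.57 to 15.4 in the other GR-mutant libraries and 35.9 to 60.9 in wild-type libraries (-1.71 ± 0.28, adjusted p = 0.00125). It met the minimum of 10 normalised counts through the wild-type libraries, where it was high. The first of these genes passed the test although 1 library ran against it, and *stard14* did not pass.

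To count such libraries, each library was set against the means of both genotypes, computed without it, at the 83 members that did not overlap or differed at least 2-fold. At 43 of them no library lay nearer to the other genotype, at 28 a single library did and at 12 more than 1 did. Wild-type library 5 lay nearer to the GR-mutant mean at 12 of the 83 (14.5%), against 12.3% of the 2197 genes of this kind in the whole table. GR-mutant library 2 lay nearer to the wild-type mean at 7 (8.43%), against 12.3%, and the other 10 libraries at 1 to 7 members each. The members were chosen by the same contrast, so these counts are a description. Without wild-type library 5, 117 members passed the test, and without GR-mutant library 2, 120 did.

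**Figure D4:**
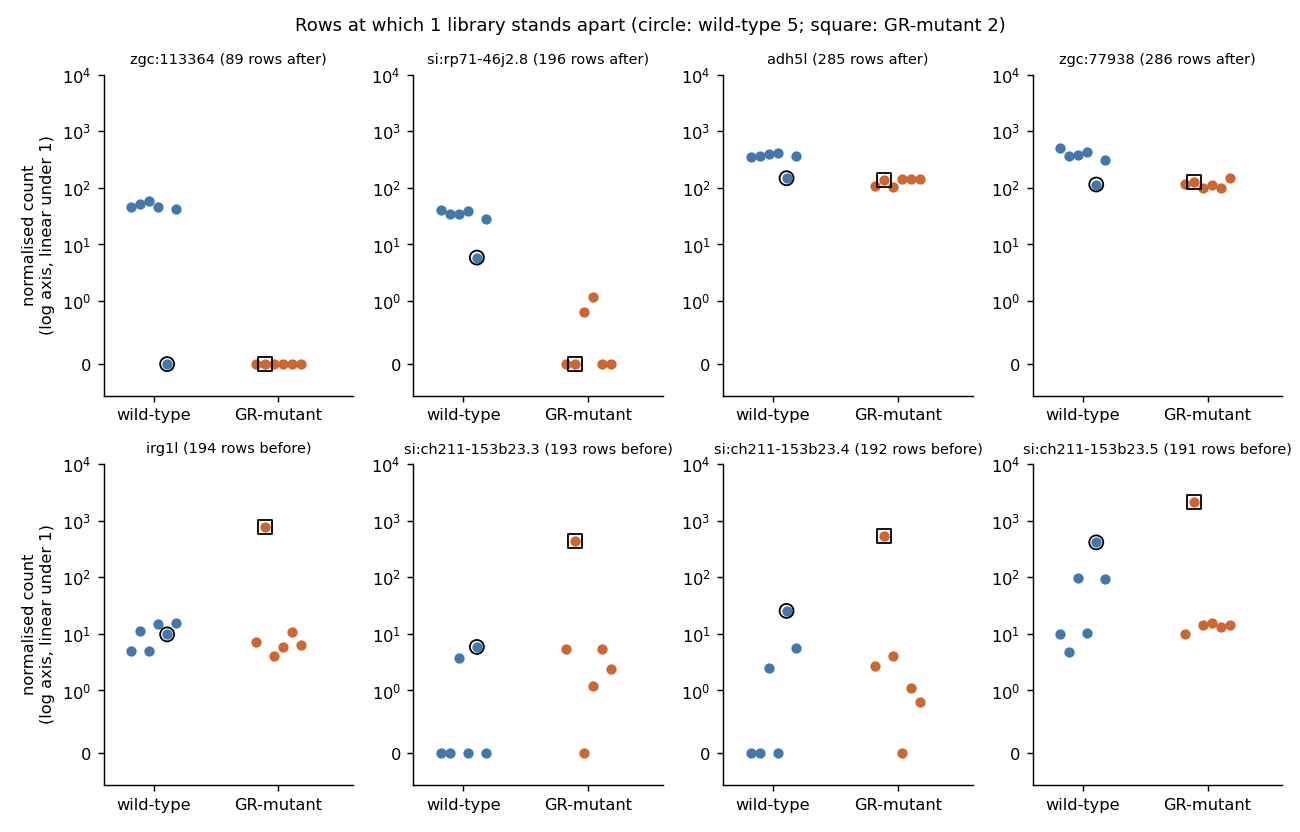
Normalised counts (y axis, logarithmic above 1 and linear below) of single libraries, 6 wild-type (blue) and 6 GR-mutant (orange), at rows where 1 library stands apart; circles mark wild-type library 5 and squares GR-mutant library 2. In the top row wild-type library 5 lies at or towards the GR-mutant level, as for *adh5l* at 148, and in the bottom row GR-mutant library 2 lies above all others, as for *irg1l* at 772.

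A different pattern held in 4 adjacent rows 191 to 194 before *nr3c1*, also singled out by their values, where 1 GR-mutant library stood above all other brains of both genotypes. *irg1l* is the zebrafish relative of the gene for the enzyme that makes itaconate, which is induced in inflammation. It had 772 normalised counts in GR-mutant library 2 and 4.13 to 15.4 in the other 11 libraries. The next rows, *si:ch211-153b23.3* and *si:ch211-153b23.4*, had 428 and 539 in GR-mutant library 2 and at most 5.87 and 25.4 elsewhere. The rise thus took in a whole group of neighbours in 1 fish. *si:ch211-153b23.5*, the only one of the 4 that is a member, had 2130 in GR-mutant library 2, 412 in wild-type library 5, 96.6 and 93.3 in wild-type libraries 3 and 7, and 4.72 to 15.5 in the other 8 libraries (log2 fold change -0.18 ± 1.34, adjusted p = 0.943). *GLOD5*, the row before the group, was also highest in GR-mutant library 2, with 133 normalised counts against 31.4 to 72.4 elsewhere, as was *zgc:174917*, the row after the group, with 31.1 against at most 7.14 elsewhere. *si:ch211-153b23.7*, 2 rows after the group, was not raised there, with 63.2 within the 37.6 to 168 of the other libraries.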

How the data were processed

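RNA-seq of 12 brains (6 wild-type, 6 GR-mutant) was analysed. After trimming and a filter on ribosomal reads, the authors aligned to GRCz11 (STAR, which also counted reads per gene) and scaled the counts with DESeq2 size factors. The submitters' processing notes name Trimmomatic 3.9. The deposited signal per gene is a normalised count, and 100% of values were whole reads within a tolerance of 0.001. The kit was directional, but the sources used here do not give the strand setting of the counting, so overlapping genes may share reads.

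The log2 of each normalised count plus a pseudocount of 1 went into limma 3.58.1 (R 4.3.3), with a mean-variance trend, over 20114 genes, adjusted by Benjamini-Hochberg at 0.05. Fold changes are differences of these log2 values, wild-type subtracted from GR-mutant, which understates low genes. Each error is an SE unless given as an SD. The fit was also run on counts simulated with the same relative spread for every gene and no outlying libraries. These settings differ from the data, so the run does not show how well the fit performs here. Alternatives were count tests on the recovered reads (edgeR 4.0.16, DESeq2 1.42.0), other pseudocounts (0.5, 5), filters, scalings, windows, a replicate block and fits without each library. Figures used Python 3.11.15, numpy 2.4.6 and matplotlib 3.10.9.

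Symbols are those of the name table, some in human form; 415 members had one and 57 shared it with another ID, whose reads may be split between copies. RefSeq positions are of another build and served only for order. Named genes were those found in one genotype only, the 10 largest rises and 10 largest falls that passed without overlap at a mean of at least 50, the 5 nearest members on each side, the 2 longest runs, up to 6 members with a single library near the other genotype, and *nr3c1*. The members, lists and rules were chosen with earlier results of these data known. Promoter sequences were not analysed here. Some members are not reported here by name.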

Additional observations from a re-analysis of the deposited data

Results flagged for a closer look

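For the named genes, the highest or lowest library of each genotype was compared with its nearest neighbour by Dixon's ratio at its 95% critical value for 6 libraries. Of 88 groups looked at, 4 passed, and chance alone passes about 1 in 20 groups that were not chosen by their values. The named genes were chosen on these same values, some for no overlap and some, such as *adh5l*, for a single library apart. That rate thus does not hold for them as it stands. In *adh5l* wild-type library 5 was low, at 148 normalised counts. In *si:ch211-107m4.1* wild-type library 2 was high, at 103. The same library was low in *sh3rf2*, at 581, and wild-type library 1 was high in *KIF3A*, at 5104. Causes were not tested.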

How the results depend on the processing

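The count of members that passed (126) lay between 89 and 146 over the other fits, tools, filters and scalings, and without each library it was 102 to 124. In each of these settings the share of members that passed was 1.41 to 2.01 times that of all genes. edgeR also called 126 members, 123 of them shared with limma, and DESeq2 called 146, which included all 126. No named gene that passed changed direction, and 7 lost the call in some setting. At equal totals 79 members were higher and 49 lower, and the longest run had 4 genes. The median log2 fold change of the members was then 0.0536 in place of -0.03, and that of all genes tested 0.0936 in place of 0.01. Directions in the text are relative to the authors' scaling. The ratio was lower in other windows. With 100 rows on either side, 29 of 144 members passed (20.1%, 1.15 times the share of all genes, 11 higher, 18 lower), 15 did not overlap and 14 stood in runs, and with 150 rows 51 of 211 passed (24.2%, 1.38 times, 21 higher, 30 lower), 28 did not overlap and 21 stood in runs. With 600 rows 177 of 844 passed (21.0%, 1.20 times, 76 higher, 101 lower), and the median was -0.00422. Without 1 library at a time, the longest run had 4 to 7 genes and 14 to 33 members stood in runs. Among genes that did not pass, *HSPA4* turned to 0.0497 at equal totals and 0.00827 with the replicate block, and *sh3rf2* to 0.0284 at equal totals and, over the fits without 1 library, lay between -0.14 and 0.00221.

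Libraries of the 2 genotypes share replicate numbers 1 to 5, and the sources used here do not say what the numbers stand for. The correlations of deviations between libraries of the same number were -0.01, 0.05, 0.04, 0.08 and -0.15. Each value is of 1 pair, so they cannot decide whether libraries of the same number shared a batch or an order of handling. With the replicate numbers as a block, 89 members passed, 32 of them higher, the longest run had 3 genes and 3 members stood in runs. In this fit a library whose number has no partner adds nothing to the genotype difference. Its counts thus rest on the libraries numbered 1 to 5, fewer than in the main fit. The promoter search planned for the members was not run. The window is set by rows, not distance, and genes under 10 normalised counts in most libraries were not tested.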
